A study of Mus musculus with 6 samples.

Results

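Chromatin occupied by full-length KLF3 was catalogued as 14115 regions, taken from the list in which the authors merged the peaks of both anti-V5 ChIP replicates; the table of all constructs of the series holds 22188 regions. Every row of the merged list was used, and the separate lists of replicate 1 (26772 peaks) and replicate 2 (23872 peaks) gave the support of each region. The cells were mouse embryonic fibroblasts (MEFs) that lack endogenous Klf3 (Klf3-/-, C57BL/6) and express the full-length factor with a V5 tag from a retroviral transgene, as an isolated stable clone. DNA precipitated with the anti-V5 antibody was compared with the paired input DNA, the sequenced chromatin before precipitation, in 2 replicates. Since the enrichment over input chose the regions, it is not itself a result here, and no region was tested for it again. No marker of the cell type can be read from a list of peaks, so the label MEF rests on the submitters, and all values belong to 1 transgenic clone.

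KLF3 belongs to the Krüppel-like factors, transcription factors that bind C-rich sequences called CACCC boxes, and GC boxes, through zinc fingers at the C-terminus. It is best known as a repressor that recruits the corepressor CtBP. It has been studied in red blood cells, B cells, adipose tissue and fibroblasts.

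The height of a region is the log2 of the tags (aligned reads) within 400 bp of its centre in both replicates together, scaled to 100 M tags. Heights ran from 6.07 to 10.89 with a median of 7.91, which is 67.2, 1898 and 241 normalised tags. The replicate scores were whole multiples (within 0.1 tag) of 18.3 in replicate 1 and 5.53 in replicate 2, which corresponds to totals of 5.46 M and 18.1 M tags behind the scores. These totals are not the numbers of reads sequenced or mapped. The replicate peaks matched to the merged regions held 5 to 122 tags with a median of 12 in replicate 1. In replicate 2 they held 13 to 218 with a median of 25. Tags given below for a region are those of its matched replicate peaks. These peaks are shorter than the 400 bp behind the height, so the tags do not add up to it. The lowest scores that passed the authors' thresholds were 91.6 in replicate 1 and 71.9 in replicate 2. Each merged score was the mean of 2 overlapping replicate peaks at 14114 of 14115 regions.

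The sequences below are the central 120 bp of 7 of the highest regions and of the Klf3 promoter, read from the mm9 plus strand, and are shown because they hold different numbers of the sequence cores recognised by KLF proteins. Capitals mark the hexamers ACACCC and ACGCCC, and also CCACCC and CCGCCC, on either strand, overlapping matches included. The windows are chr5:150040698-150040817 (Alox5ap, intergenic), chr5:147606582-147606701 (Usp12 promoter), chr16:46497354-46497473 (Pvrl3 promoter), chr9:119231964-119232083 (Oxsr1 promoter), chr16:31291092-31291211 (Ppp1r2, intergenic), chr15:76034662-76034781 (Plec intron 1), chr10:79896639-79896758 (Tcf3 promoter) and chr5:65194353-65194472 (Klf3 promoter).
Alox5ap: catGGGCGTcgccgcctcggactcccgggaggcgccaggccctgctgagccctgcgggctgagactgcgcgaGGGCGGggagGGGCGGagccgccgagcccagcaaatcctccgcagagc
Usp12: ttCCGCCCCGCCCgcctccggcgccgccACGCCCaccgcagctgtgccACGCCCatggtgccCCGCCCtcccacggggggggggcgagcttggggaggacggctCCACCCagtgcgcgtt
Pvrl3: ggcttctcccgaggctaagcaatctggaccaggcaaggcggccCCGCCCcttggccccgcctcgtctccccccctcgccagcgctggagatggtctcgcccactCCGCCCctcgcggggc
Oxsr1: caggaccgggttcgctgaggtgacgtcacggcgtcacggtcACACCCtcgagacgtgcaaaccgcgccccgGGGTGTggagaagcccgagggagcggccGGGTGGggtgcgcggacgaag
Ppp1r2: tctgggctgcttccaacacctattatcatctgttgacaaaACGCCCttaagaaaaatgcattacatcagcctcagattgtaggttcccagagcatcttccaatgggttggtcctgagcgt
Plec: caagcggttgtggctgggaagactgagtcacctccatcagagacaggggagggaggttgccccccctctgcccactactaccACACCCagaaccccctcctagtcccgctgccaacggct
Tcf3: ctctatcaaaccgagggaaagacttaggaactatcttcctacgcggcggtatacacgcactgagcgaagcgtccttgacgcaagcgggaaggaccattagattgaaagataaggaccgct
Klf3: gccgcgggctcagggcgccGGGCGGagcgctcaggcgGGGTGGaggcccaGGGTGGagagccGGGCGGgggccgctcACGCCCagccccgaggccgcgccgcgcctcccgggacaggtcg
The Usp12 and Klf3 windows hold 3 of the 4 kinds of hexamer, the Alox5ap and Oxsr1 windows 2, the Pvrl3, Ppp1r2 and Plec windows 1, and the Tcf3 window none.

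The authors named each region after the gene with the nearest transcription start site (TSS). By this rule the 14115 regions named 8594 target genes. Protein-coding genes made up 7735 of them with 12608 regions, noncoding RNA genes of the class miscRNA 766 with 1366 regions, and pseudogenes 78 with 121 regions. Among the 21900 protein-coding genes of the RefSeq table, 7728 had a region of any kind (35.3%). A promoter region, defined by the authors' annotation as lying between 1000 bp before and 100 bp after a TSS, was found for 4078 genes, of which 3918 are protein-coding in RefSeq (17.9% of all). The share was 21.3% in the replicate 1 list and 30.0% in the replicate 2 list. Promoter genes of the separate lists numbered 4865 and 6851, and 4296 were in both. Of the 4078 promoter genes of the merged list, 3975 had a promoter peak in each replicate list as well. The merged list was built from overlapping peaks of both replicates, so this count was largely set in advance and is no independent support.

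Promoters held 4263 regions (30.2%), introns 4328 (30.7%), intergenic sequence 5001 (35.4%) and the remaining classes 523 (3.71%). For 2723 genes all regions were in the promoter, for 1355 a promoter region came with others, and 4516 genes had regions outside promoters alone. The nearest TSS lay within 10 kb of 7135 regions (50.5%) and more than 100 kb from 2194 (15.5%). A catalogue restricted to 10 kb contained 5799 genes. The nearest-TSS rule also gives each region to 1 gene only. Against GENCODE transcripts of the same build, 478 regions were centred in the promoters of 2 or more protein-coding genes, and 4604 of 22367 GENCODE genes (20.6%) had a region centred in a promoter. The annotation matters for single genes. Among the members of the gene lists described below, 36 had a GENCODE promoter region that the authors' table gives another name or another class, for instance Myc, Actb and Timp3.

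Most target genes had a single region. It was 1 for 5541 genes (64.5% of genes, 39.3% of regions), 3053 genes had 2 or more, 1278 had 3 or more, and 282 had 5 or more. These 282 genes held 1744 regions (12.4% of all), of which 8.66% were in promoters, 36.6% in introns and 53.1% intergenic. A promoter region was present in 130 of the 282 genes (46.1%), and among genes with 1 region that region was in the promoter for 47.3%. The regions of the 282 genes spread over a median of 148 kb, from 8.36 kb to 2877 kb. Multiple promoter regions were uncommon, with 2 or more in 182 genes and at most 3, in 3 genes.

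**Figure D1:**
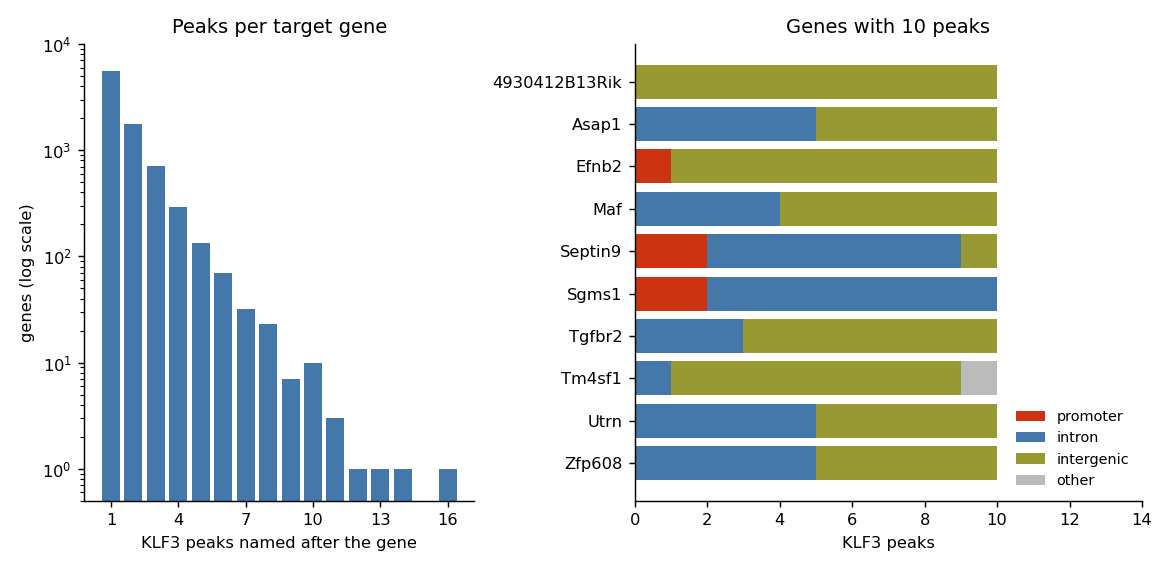
KLF3 regions per target gene. Left, number of genes (log scale) with each number of regions. Right, the 10 genes with 10 regions, with bars divided by annotation. Intergenic and intron regions make up most of each bar, and Efnb2, Septin9 and Sgms1 are the genes here with a promoter region.

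Among the 17 genes with 10 or more regions, Gm20125 (14 regions) and 4933433H22Rik (13) are noncoding RNA genes. Regions of Gm20125 stretched over 1356 kb, so that the name here marks a nearest TSS that can be distant, whereas those of 4933433H22Rik fell within 137 kb. Reep3, for a microtubule-binding protein of the endoplasmic reticulum, had 12 regions, all intergenic, with heights of 7.02 to 9.10 over 257 kb. The 11 regions of Diap2, a formin gene on the X chromosome, were low (6.20 to 7.68) and spread over 1957 kb. Tns3, for the focal adhesion protein tensin, also had 11 regions, of which 7 were in introns. The 10 genes with 10 regions were 4930412B13Rik, Asap1, Efnb2, Maf, Septin9, Sgms1, Tgfbr2, Tm4sf1, Utrn and Zfp608. Among them Tgfbr2, the type II TGF-beta receptor gene, reached 9.83 and Asap1 and Utrn each reached 10.0 at an intergenic region.

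Counting only regions within 10 kb of the TSS left 9 genes with 5 or more, and those named here were chosen after their values were seen. Lmna, for lamin A/C of the nuclear lamina, and Plec, for the cytolinker plectin, had 8 each. The genes 4933433H22Rik, Agfg1, Ahnak, Kank2, Osbpl1a and Septin9 had 5 each. At Plec the 8 regions of chr15:76018813-76063728 had heights of 8.96 to 10.59, all above the median of 7.91, and comprised 3 promoter regions, 3 intron regions, 1 exon region and 1 region in a 3' UTR. Of the promoter regions, 2 belonged to the same transcript start (10.30 and 10.19) and 1 to another (8.96). The highest Plec region, in intron 1, held 60 and 162 tags. At Lmna 2 neighbouring regions of intron 1 had heights of 10.0 and 10.01, with 39 and 132 tags in the first and 35 and 115 in the second. Ahnak, for a very large scaffold protein, had 5 regions between 9.56 and 10.43. Plec, Lmna and Ahnak thus each had 5 or more regions within 10 kb of a TSS, whereas Diap2 had none so near.

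The highest regions were shared between promoters and distal sites. Of the 103 regions with the top 100 heights, ties included, 63 lay in promoters, 15 in introns and 19 between genes. The highest of all was intergenic, at chr5:150040558-150040958, at -35876 bp from the TSS of Alox5ap, the gene for the protein that presents arachidonic acid to 5-lipoxygenase. It had a height of 10.89 with 70 tags in replicate 1 and 177 in replicate 2, a G+C content of 66.3% and a conservation score of 0.61. Its G+C content was thus above the promoter median of 63.8%, although no GENCODE protein-coding promoter covered its centre.

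Ppp1r10, for a nuclear regulatory subunit of protein phosphatase 1, followed at 10.80 with 109 and 209 tags. This region, 34 bp after the TSS, also fell in the GENCODE promoter of the divergent gene Mrps18b, a mitochondrial ribosomal protein gene with a further region of its own at 10.40. Usp12, for a deubiquitinase, stood at 10.75 with 67 and 214 tags. Pvrl3, for the cell adhesion protein nectin, stood at 10.71 with 75 and 174. These 3 are promoter regions. Replicate 2 held more tags in each of them, but from a larger total. The scaled score was higher in replicate 1 at Ppp1r10 and Pvrl3 (log2 ratios 0.79 and 0.51) and nearly equal at Usp12 (0.05).

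The promoters of Pdp1 (10.68), Oxsr1 (10.63), Shoc2 (10.61) and Anxa5 (10.61) came next, which encode a pyruvate dehydrogenase phosphatase, a kinase of cell volume control, a scaffold of RAS signalling and an annexin. The Anxa5 region was assigned by the authors to the promoter of a transcript that GENCODE names 1810062G17Rik, the divergent neighbour of Anxa5. Ppp1r2, for an inhibitor of protein phosphatase 1, had an intergenic region of 10.60 located at -15789 bp from the TSS, with 91 and 176 tags. The intron 1 region of Plec (10.59) and the promoters of Tcf3 (10.58), an E protein gene, and Septin10 (10.57) completed the 12. The promoters of 4921513D23Rik and of the noncoding RNA gene Neat1 were tied with Septin10 at 10.57.

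**Figure D2:**
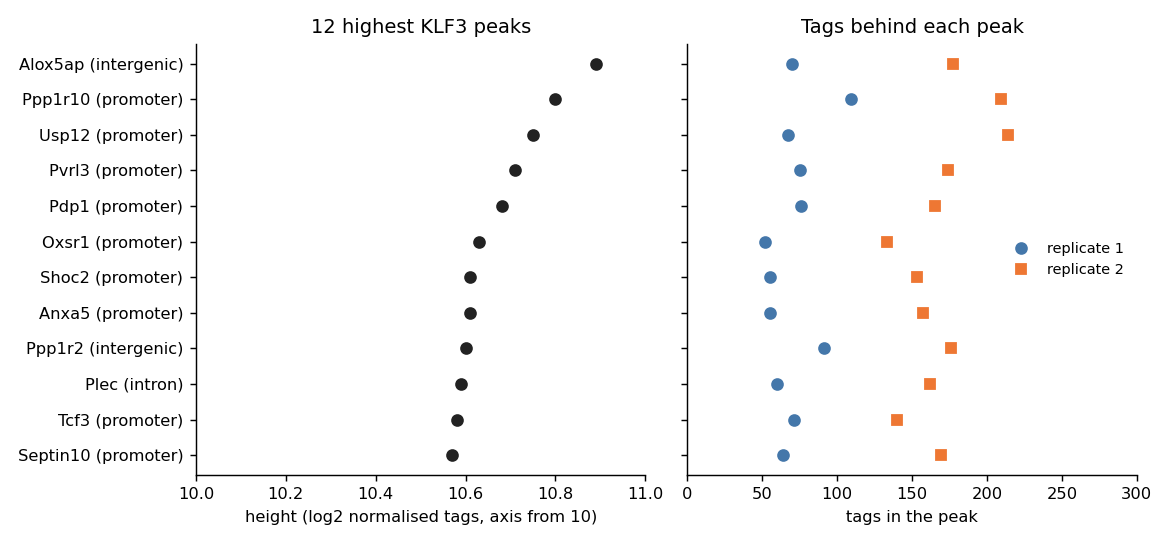
The 12 highest KLF3 regions outside chromosome 18. Left, height as log2 of normalised tags on an axis from 10 to 11, between 10.57 and 10.89. Right, the tags in the matched peak of each replicate, which is shorter than 400 bp, with 52 to 109 in replicate 1 (circles) and 133 to 214 in replicate 2 (squares).

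The ratio of the replicate 1 score to the replicate 2 score had a median of 0.63 on the log2 scale with an SD of 0.53 over regions. It was lower at promoters (0.35) than at intron (0.73) and intergenic (0.82) regions, so that promoters stood relatively higher in replicate 2. Among the top 100 outside chromosome 18, the largest ratios were those of an intergenic region near Leprel1 (75 and 77 tags, log2 ratio 1.69), another near 5830433M19Rik (78 and 113) and the Rangap1 promoter (118 and 182, log2 ratio 1.10). The smallest were the Ankrd10 promoter (33 and 121, log2 ratio -0.15), a Plec promoter (40 and 141, -0.09) and the Tmem123 promoter (37 and 127, -0.05). The heights of the 12 highest regions, from 10.57 to 10.89, span less than the SD of 0.53. That SD is of the ratio over all regions and is not the error of a height. The error of a single height was not estimated, so their order is not taken as resolved.

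At its own gene KLF3 had 7 regions. The promoter region at chr5:65194213-65194613, 349 bp before the TSS, was the highest with a height of 10.01, 43 and 109 tags, a G+C content of 78.6% and a conservation score of 0.77. A region in intron 1 reached 9.32 (29 and 76 tags) and an intergenic region 63.8 kb from the TSS reached 9.58 (41 and 67 tags). The other 4 were centred on exon 3 (8.96), exon 4 (8.18), exon 5 (8.31) and exon 6 (8.47) of the 6 exons. The centres for exons 4, 5 and 6 were 6, 11 and 14 bp from the middle of the coding part of the exon. These exons have 151, 161 and 179 coding bases, and the exon 3 region was centred 81.5 bp from the middle of 484 coding bases.

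Regions annotated to exons were rare, 117 in all, and they lay in 111 transcripts. The replicate 1 list held 5 exon peaks of Klf3 and the replicate 2 list 4. The cells carry a retroviral copy of the Klf3 coding sequence, and tags of that copy cannot be told apart from tags of the exons of the locus. The Klf3 promoter region does not overlap a coding exon.

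**Figure D3:**
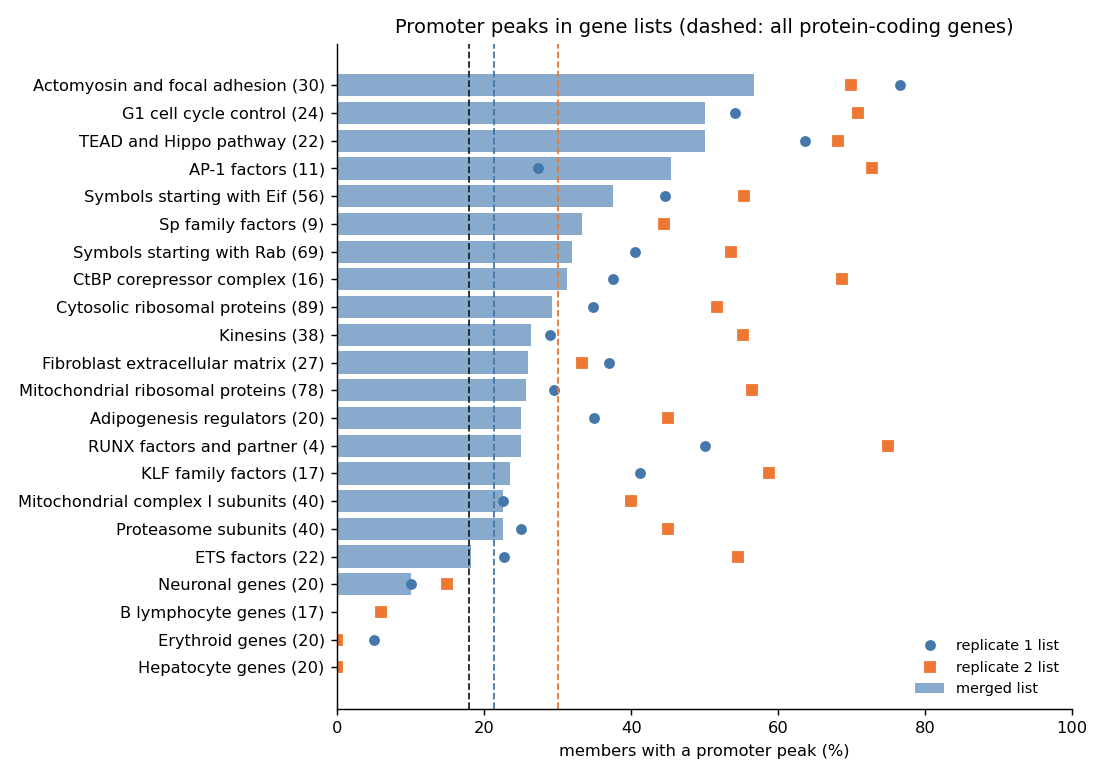
Share of the members of 22 gene lists that had a promoter region, with the number of members in parentheses. Bars show the merged list, circles and squares the lists of replicates 1 and 2, and dashed lines the shares over all protein-coding genes (17.9%, 21.3% and 30.0%). The actomyosin list is highest at 56.7% and the erythroid, B lymphocyte and hepatocyte lists are at 0 in the merged list.

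Gene lists were read against the 17.9% of all protein-coding genes with a promoter region, and against the median height of their highest promoter region, 8.34. The share was above the background in 18 of 22 lists and below it in 4, in the merged list and in both replicate lists. The merged list is made from the replicate lists, and the gene lists were chosen with earlier results of these data known. This count is therefore a description and no independent support. The ETS share in the merged list, 18.2%, was barely above the background. The background also includes families with few promoter regions, such as olfactory receptors (3 of 1110). The actomyosin, TEAD and Hippo, and G1 lists had the highest shares, and the lists of genes of other cell types had the lowest. The replicate 2 list gave more than 1.5 times the merged share in 12 lists and the replicate 1 list in 2, while the share over all protein-coding genes moved from 17.9% to 30.0% and 21.3%. The size of a share therefore depends on the list of regions used. Shares below come from short lists and are descriptions. A gene said to have no region has none in the merged list. Some such genes had peaks in the lists of replicates 1 and 2, for instance Postn (4 and 2) and Jund (3 and 1). Others, such as Klf14, Cnn1 and Batf, had no peak in either.

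The 30 genes of the actomyosin and focal adhesion list mostly encode parts of stress fibres and their anchors. The list also holds Vim and Lmna, genes of an intermediate filament and of the nuclear lamina. Of the 30 genes, 17 had a promoter region (56.7%), with a median height of 8.76, and 9 more had a region elsewhere. The replicate lists gave 23 and 21 promoter genes. Vim, for the intermediate filament vimentin, was highest at 10.30 with 83 and 147 tags. Iqgap1 (9.90), Actn1 (9.86) and Flna (9.65), which encode a scaffold of actin, alpha-actinin and filamin A, followed. Actb reached 10.51 in intron 1. No region was named after Myl9, Flnc, Cnn1 or Cnn2.

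Of 22 TEAD and Hippo pathway genes, which control growth through the coactivators YAP and TAZ, 11 had a promoter region (50%; 14 and 15 in the replicate lists), with a median height of 8.75. The promoters of Vgll3 (9.66, with 32 and 67 tags), a TEAD cofactor gene, and of the target genes Ankrd1 (9.54), Ccn2 (9.01) and Amotl2 (8.93) were highest. Regions outside promoters reached 10.38 at Ankrd1 (intergenic, with 82 and 148 tags), 9.84 at Vgll4 and 9.81 at Ccn1. Only Tead3 and Mob1b of the list had no region. A region of some kind was found for 90.9% of members, beside 35.3% of all genes.

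Of 24 genes of G1 cell cycle control, 12 had a promoter region (50%; 13 and 17 in the replicate lists), with a median height of 8.32. They included Cdk4 (9.39, with 26 and 60 tags), the kinase of cyclin D, the transcription factor gene E2f1 (9.17), and the inhibitor genes Cdkn1a (8.87) and Cdkn2a (8.71). Drivers and inhibitors of the cycle were thus both among the targets.

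Of 11 AP-1 factor genes, 5 had a promoter region (45.5%), among them Fosl1 (9.48, with 24 and 75 tags), Fosl2 (9.28), Atf3 (8.91) and Jun (8.20). The count depended on the replicate, 3 in replicate 1 and 8 in replicate 2. Jund, Batf, Batf2 and Batf3 had no region. Among RUNX factors, Cbfb, which encodes their common partner, had a promoter region of 9.10, while Runx1 (8 regions, up to 9.23), Runx2 (5, up to 8.83) and Runx3 (2, up to 8.22) had regions outside promoters. Of 22 ETS factor genes, 4 had a promoter region (18.2%): Ets1 (9.58), Elf1 (8.40), Etv5 (8.34) and Erf (8.07). This share was at the background in the merged list, whereas 5 ETS genes in replicate 1 (22.7%, background 21.3%) and 12 in replicate 2 (54.5%, background 30.0%) had a promoter peak.

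In the KLF family itself, 4 of 17 genes had a promoter region (23.5%), with 7 in the replicate 1 list (41.2%) and 10 in the replicate 2 list (58.8%). The 4 were Klf11 (10.38, with 67 and 134 tags), Klf3 (10.01), Klf5 (8.44) and Klf9 (8.43). A further 9 genes had regions elsewhere, including intron 1 of Klf16 (9.5), Klf13 (9.38) and Klf8 (8.28, 312 bp after the TSS), so that 76.5% of the family carried a region. Klf1, Klf14, Klf15 and Klf17 had none. Of the 9 related Sp factor genes, Sp4 (9.58), Sp1 (8.99) and Sp2 (8.77) had a promoter region, and Sp5, Sp7 and Sp9 had none. The CtBP corepressor list, the partners through which KLF3 represses, had 5 of 16 promoters occupied (31.2%), with 6 in replicate 1 (37.5%) and 11 in replicate 2 (68.8%). Both CtBP genes were among them, with Ctbp1 at 8.56 (22 and 39 tags) and Ctbp2 at 8.34, beside Wiz (8.49) and Rreb1 (8.39). Hdac1, Hdac2, Rcor1 and Kdm1a had no region in the merged list. Their peaks in the lists of replicates 1 and 2 numbered 0 and 1 (Hdac1), 2 and 0 (Hdac2), 0 and 3 (Rcor1), and 2 and 1 (Kdm1a).

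Of 27 genes of the fibroblast extracellular matrix, 7 had a promoter region (25.9%; 10 and 9 in the replicate lists) and 16 had regions elsewhere only. The promoters of Col6a2 (9.51, with 33 and 86 tags), Col5a1 (8.57), Mmp14 (8.15) and Timp1 (8.10) were highest. Col3a1, Fn1, Loxl2 and Postn, which encode a fibrillar collagen, fibronectin, a lysyl oxidase and periostin, had no region. A region of some kind was found for 85.2% of the matrix genes and 86.7% of the actomyosin genes, so the lists had like shares with a region and unlike shares with a promoter region. Of 20 regulators of adipogenesis, 5 had a promoter region (25%; 7 and 9 in the replicate lists), among them C1qtnf12 (7.99), which encodes the hormone adipolin, Cebpb (7.96), Gata3 (7.45) and Ncor1 (7.08). These 4 were below the median of 8.34.

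Lists of large complexes and families were taken by the start of the gene symbol, so they hold some related proteins beside the members proper. Genes with symbols starting in Eif, which are translation initiation factors together with kinases and binding proteins that regulate them, had 21 of 56 promoters occupied (37.5%; 25 and 31 in the replicate lists), led by Eif1 (9.58), Eif2b5 (9.29), Eif4ebp1 (9.25) and Eif4b (9.12). Genes with symbols starting in Rab, which are GTPases of vesicle traffic together with some of their effectors and regulators, had 22 of 69 (31.9%; 28 and 37), led by Rab11a (9.64), Rab5a (9.42), Rab1a (9.17) and Rab8a (9.12). Cytosolic ribosomal proteins had 26 of 89 (29.2%; 31 and 46), with Rpl41 at 9.96 (39 and 88 tags), Rps19 at 9.16, and Rps20 and Rps15 at 9.06. Mitochondrial ribosomal proteins had 20 of 78 (25.6%; 23 and 44), led by Mrps18b (10.40), Mrpl19 (9.44), Mrpl40 (9.14) and Mrpl1 (8.78). Kinesins had 10 of 38 (26.3%; 11 and 21), led by Kif16b (9.67), Kif1b (9.36), Kif23 (8.48) and Kif11 (8.46), and a low median height of 7.68. Complex I subunits had 9 of 40 (22.5%; 9 and 16), led by Ndufb4 (8.77), Ndufs7 (8.45), Ndufv1 (8.39) and Ndufa1 (8.33). Proteasome subunits also had 9 of 40 (10 and 18), led by Psma1 (8.86), Psmd7 (8.75), Psmd9 (8.19) and Psmd2 (8.09). The nearest-TSS naming lowers some of these counts, since 6 cytosolic ribosomal, 4 mitochondrial ribosomal and 4 complex I genes had a GENCODE promoter region that carries another name or class.

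Genes of other cell types rarely had a promoter region, beside 17.9% of all protein-coding genes. None of 20 erythroid, 17 B lymphocyte or 20 hepatocyte genes had a promoter region in the merged list, and of 20 neuronal genes Tubb3 (8.17) and Map2 (7.95) had one (10.0%). A further 5 neuronal genes had regions elsewhere only. A region of some kind was thus found for 35% of the neuronal list, like the 35.3% of all protein-coding genes. The share was 10% in the erythroid, 17.6% in the B lymphocyte and 20% in the hepatocyte list. Regions elsewhere were named after Ank1 (7.55) and Tal1 (6.72) of the erythroid list, and after Ebf1 (7.39), Rag2 (6.81) and Cr2 (6.74) of the B lymphocyte list. In the hepatocyte list, Apob had 7 regions with the highest, at 8.57, at -58524 bp from the TSS. The Rag2 region was intergenic, at -1781433 bp, which shows how far the nearest TSS can be. In the separate lists, 1 B lymphocyte gene had a promoter peak in each replicate and 1 erythroid gene in replicate 1.

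Genes were also grouped by a common symbol stem. Of 40 stems with at least 40 protein-coding genes, the highest promoter shares were those of Ube, the ubiquitin-conjugating enzymes (16 of 42, 38.1%), Eif (21 of 56), Usp, the deubiquitinases (20 of 56, 35.7%), Rps, which includes kinase genes beside ribosomal proteins (15 of 44, 34.1%), Map (16 of 47, 34.0%), Rab, Ppp, the protein phosphatase subunits (24 of 77, 31.2%), and Wdr (20 of 65, 30.8%). At the other end, defensins (Defb, 42 genes), Pramel (46), secretoglobins (Scgb, 40), vomeronasal receptors (Vmn, 355) and the provisional LOC symbols (138) had no promoter region. Olfactory receptors had 3 of 1110 (0.27%), Gm gene models 6 of 1329 (0.45%) and keratin-associated proteins 1 of 56 (1.79%). Zinc finger genes named Zfp (69 of 397, 17.4%) and solute carriers (70 of 375, 18.7%) were near the background. The stems Gm and LOC are provisional names, not families.

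MicroRNA genes gave names to 195 regions of 126 genes, and 17 of them had a promoter region as annotated to the precursor. The highest was that of Mir30a (9.68, 55 and 83 tags), at -809 bp from the start of the precursor. Since precursors are processed from longer transcripts, the annotation does not mark the start of the primary transcript.

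Density differed between chromosomes. Autosomes held 5.55 regions per Mb together, from 3.15 on chromosome 14 and 3.91 on chromosome 7 to 8.27 on chromosome 11 and 8.38 on chromosome 19. Over the 19 autosomes the density had a Spearman rho of 0.47 with the number of protein-coding genes per Mb and of 0.96 between the replicate lists, which share the clone and the antibody. Chromosome 14 had 0.55 times the density of the other autosomes, 0.60 and 0.52 in the replicate lists, 0.48 for promoter regions and 0.59 for other regions. It carries 7.61 genes per Mb, more than chromosomes 1, 3, 12, 13, 16 and 18. The share of its genes with a GENCODE promoter region was 12%, and 12.5% without olfactory and vomeronasal receptor genes.

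Chromosome 7 has, with chromosome 11, the most genes per Mb (13.6 each) and a promoter share of 11.3%, which is 13.9% without its 394 receptor genes. The other autosomes ranged from 16.3% on chromosome 6 to 27.1% on chromosome 8, and from 17.7% to 28.2% without receptor genes. Heights outside promoters also varied. The median was lowest on chromosome 14 (7.43) among autosomes and highest on chromosome 16 (8.05), where a median of 14 tags in replicate 1 and 27 in replicate 2 compared with 11 and 19 on chromosome 14.

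The X chromosome held 394 regions, or 2.36 per Mb, 0.43 times the autosomal density. The factor was 0.52 in replicate 1 and 0.40 in replicate 2. It was 0.28 for promoter regions and 0.49 for others. A promoter region was found for 86 of 932 X-linked GENCODE genes (9.23%), below each autosome, and the median height outside promoters was 7.18. X regions had a median G+C content of 41.9%, compared with 46.4% to 55.1% on the autosomes. The highest X region was the Flna promoter (9.65, 45 and 74 tags), which is lower than the highest region of each autosome. The Y chromosome held 4 regions, led by an intergenic one near Eif2s3y (7.17, 19 and 18 tags). The cause of these differences in density was not tested.

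**Figure D4:**
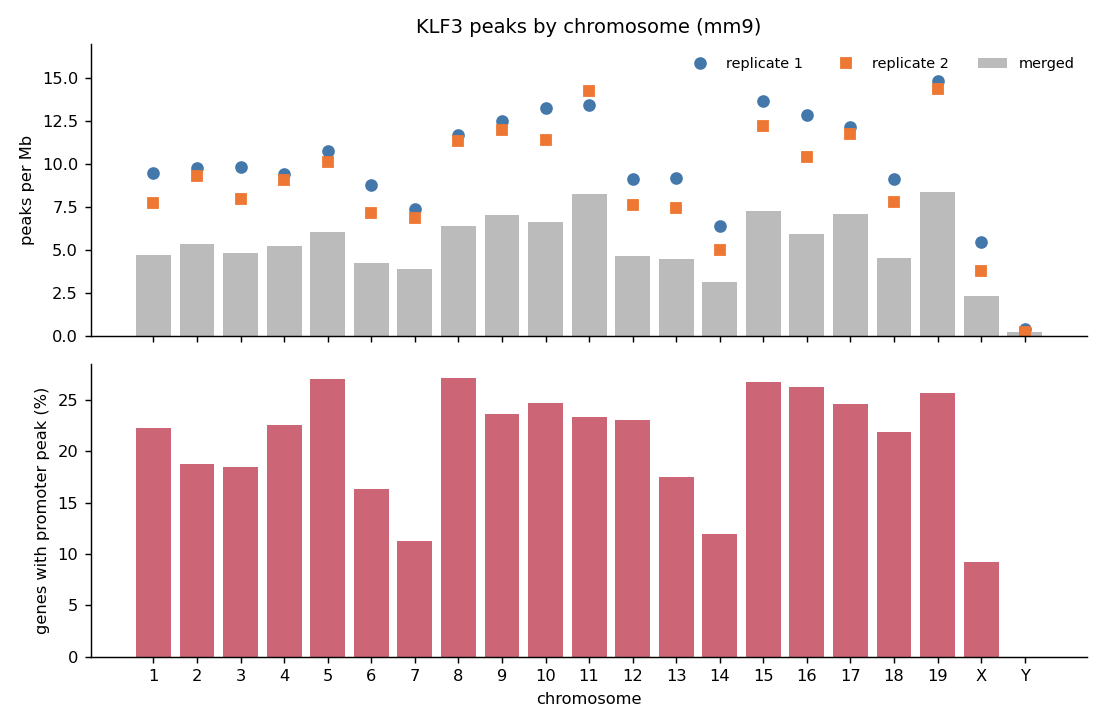
KLF3 regions by chromosome. Upper panel, regions per Mb of mm9 in the merged list (bars) and in the lists of replicates 1 and 2 (circles and squares), lowest on X and Y and, of the autosomes, on 14. Lower panel, percentage of GENCODE protein-coding genes with a region centred in the promoter, 9.23% on X and 11.3% to 27.1% on autosomes.

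The highest region of the remaining chromosomes was a promoter in most cases. These were Rc3h1 (10.47) on chromosome 1, for an RNA-binding protein of mRNA decay, Vim on 2, Osbpl3 (10.19) on 6, Usp31 (10.41) on 7, Klf11 on 12, Zfp367 (10.53) on 13 and Gm4285 (10.09) on 14. The last lies in the GENCODE promoter of Tpt1, for an abundant growth-related protein, and held 44 and 124 tags. Chromosome 11 was led by an intron 1 region of the myosin gene Myo1c (10.45), and chromosome 8 by a region at the end of a transcript next to 4931428F04Rik (10.43).

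The G+C content of the regions had a median of 50.9%, with 45.5% and 54.5% for the shorter peaks of replicates 1 and 2. Promoter regions had a median of 63.8% (5th to 95th percentile 49.4% to 75.3%), intron regions 46.9% and intergenic regions 44.6% (31.2% to 61.6%). CpG dinucleotides per 100 bases had medians of 8 in promoter, 1.2 in intron and 1 in intergenic regions. Conservation, the mean PhastCons score from 0 to 1, had a median of 0.14 in all regions, 0.22 in promoter, 0.10 in intron and 0.07 in intergenic regions. A score of 0.5 or more was reached by 1418 regions (10.0%), and 1238 had a score of 0. Regions of the remaining classes, which include exons, had the highest median, 0.29.

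Both measures followed height. From the lowest to the highest 10% of regions, the median G+C rose from 39.2% to 60.3%, the median conservation from 0.04 to 0.21 and the share of promoters from 2.62% to 52.8%. Among promoter regions alone the rise was slight, from 60.8% to 65.3% in G+C and from 0.19 to 0.24 in conservation. Among intron and intergenic regions it remained, from 38.9% to 51.9% and from 0.03 to 0.17. In the replicate lists the G+C of the lowest and highest 10% was 37.4% and 56.1% in replicate 1 and 49% and 62.9% in replicate 2. The regions are not independent, and the cause of the relation with G+C was not tested.

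**Figure D5:**
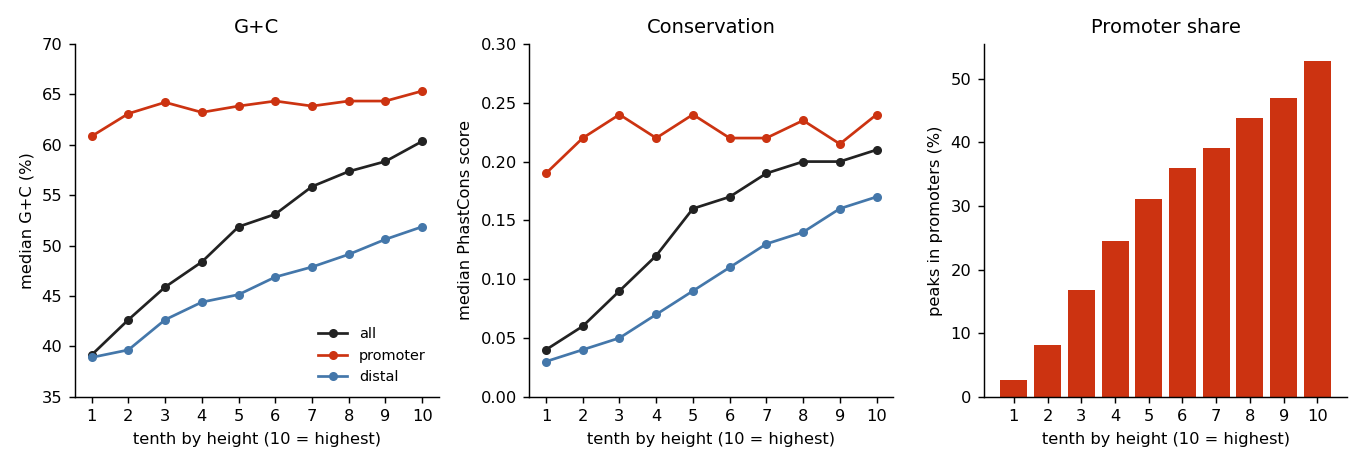
Regions ranked by height and divided into 10 equal groups, 10 being the highest. Median G+C (left) and median PhastCons score (centre) are given for all, promoter and distal (intron and intergenic) regions, and the share of promoter regions at right rises from 2.62% to 52.8%.

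Individual regions departed from these medians. Of regions with a height of 9 or more outside chromosome 18, the most conserved were the promoters of Zc3h4 (0.97), Mbd6 (0.96) and Fzd2 (0.94), a frizzled receptor gene, and intron 1 regions of 2210403K04Rik (0.93) and of Rbfox2 (0.92), a splicing factor gene. The promoter regions with the lowest G+C were those of Has2 (39.7%), for hyaluronan synthase, Mir30a (40.1%), Gtf3c6 (40.9%), Zwilch (42.4%) and 4931408D14Rik (42.6%). Those with the highest were Raph1 (81.3%), 1500012F01Rik (80.0%), Spata1 (79.3%), Rap1b and Klf3 (both 78.6%). At the Has2 promoter 37 and 48 tags were counted, and at the Raph1 promoter 32 and 82, so that the ratio of replicate 2 to replicate 1 tags was higher in the G+C-rich case. Genes with at least 3 regions and the highest mean conservation were the chromatin remodelling gene Arid1a (0.81 over 3 regions), the ETS gene Etv5 (0.81 over 3), the AP-1 gene Fosl2 (0.79 over 3), the ETS gene Etv1 (0.75 over 4) and the T-box gene Tbx18 (0.74 over 3).

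At least 1 of the 4 hexamers occurred within the central 100 bp of 8179 regions (57.9%), compared with 20.9% of 100 bp windows 400 to 500 bp away on either side and 46.9% of the 100 bp before the TSS of 22359 protein-coding genes. CCGCCC was the most frequent (30.2%, flanks 6.87%, promoters 31.5%), followed by CCACCC (18.3%, 8.98% and 14.7%), ACGCCC (14.4%, 2.68% and 8.30%) and ACACCC (12.8%, 5.51% and 5.81%). The ratio of centre to flank was largest for ACGCCC, 5.39, and smallest for CCACCC, 2.03.

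Promoter and distal regions differed in how often they held each hexamer. In promoter regions CCGCCC was present in 64.4% and ACACCC in 8.19%, and 84.9% had any. In intergenic regions ACACCC and CCACCC (14% and 15%) were more frequent than CCGCCC (11.5%) and ACGCCC (7.52%), and 40.3% had any, with 13.8% of their flanks. The order was the reverse relative to flanks. Intergenic ratios of centre to flank were 8.64 for ACGCCC, 5.48 for CCGCCC, 2.68 for ACACCC and 2.20 for CCACCC. In promoter regions ACGCCC (4.81) and CCGCCC (4.46) also had larger ratios than CCACCC (1.67) and ACACCC (1.34). Regions with 1 or 2 kinds of hexamer had higher medians than regions with none. Intergenic regions had a median height of 7.35 with none (2985 regions), 8.04 with 1 kind (1667), 8.27 with 2 (317) and 8.22 with 3 (31). Intron regions had medians of 7.42, 8.02, 8.23 and 8.19 with 0, 1, 2 and 3 kinds. Promoter regions had medians of 8.06, 8.32, 8.51 and 8.65 with 0, 1, 2 and 3 kinds.

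Of the 103 highest regions 96 contained a hexamer. The 7 without were the promoters of Lmnb1 (10.73), Tcf3, Neat1, Rangap1 (10.47), Arv1 (10.37) and Pim1 (10.26) and the intergenic region near Leprel1 (10.13). Rangap1 ranked second in replicate 1 with 118 tags, and its G+C content was 47.4%, that of Tcf3 49.4% and that of Leprel1 38.9%. Those of Lmnb1 (73.1%), Arv1 (69.3%) and Pim1 (72.1%) were high.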

How the data were processed

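Chromatin of V5-tagged KLF3 MEFs was immunoprecipitated in duplicate and sequenced with 50 bp reads. The authors aligned reads to mm9 (Bowtie2 2.0.0, SAMtools 0.1.18), checked them with FastQC 0.10.1 and called peaks with HOMER 4.1 against the paired input of each replicate (5-fold over input and over the surrounding 10 kb, false discovery rate 0.001); versions are from the submitters' processing notes. Overlapping peaks of both replicates were merged. The deposited peak score is a signal (tags per 100 M tags), and the deposited height is on a log2 scale, from tags in 400 bp. The authors also gave G+C as a fraction, printed here as a percentage, and conservation as a score (mean PhastCons), with CpG content. The lists of the mutant constructs were not used here.

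Replicate peaks were matched to merged regions by overlap of at least 1 bp, and tags were recovered by dividing scores by the value of 1 tag. G+C recomputed from mm9 equalled the deposited value (to 0.0001) at 14113 of 14115 regions. Gene IDs of 8578 of 8594 genes were found in a RefSeq table used for names and gene classes only, and 17 names that had been turned into dates were restored from it. The matching, tag recovery and hexamer search were tested on simulated data. Python 3.11.15, pandas 2.3.3 and pysam 0.24.0 were used. No test was made: the replicates were pooled in the deposited heights, and counts and medians are descriptions. Members and gene lists were chosen with earlier results of these data known. Named were the 10 genes with most regions and their ties, the 12 highest regions, the highest per chromosome (without chromosome 18), up to 4 highest promoters per list and members without regions where 5 or fewer, the extremes outside chromosome 18 of G+C and conservation among regions of height 9 or more, of the replicate ratio among the top 100, and of mean conservation over 3 or more regions. Other genes were named after their values were seen, and some genes within the rule are not reported here.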

Additional observations from a re-analysis of the deposited data

How the results depend on the processing

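The number of target genes was 11487 to 11913 with 1 replicate list alone, 5100 with the upper 50% of regions by height, 7762 with replicate peaks overlapping by 50% and 5799 within 10 kb of the TSS. Genes with a promoter region numbered 4865 to 6851 with 1 replicate list alone, and their number was within 1.5 times the 4078 given under the other alternatives, including GENCODE promoters, chosen after seeing the data. Genes with 5 or more regions were the least stable: 857 to 1271 with 1 replicate list, 61 with the upper 50% by height, 168 with 50% overlap and 9 within 10 kb. The X to autosome ratio was 0.40 to 0.52 with 1 list and 0.21 with the upper 50%. The share of regions that were the only one of their gene was 21.0% to 26.4% with 1 list, 53.5% with the upper 50% and 44.1% with 50% overlap. Median G+C was 45.5% to 54.5% with 1 list. Median conservation was 0.07 to 0.13 with 1 list (added after seeing the data) and 0.19 with the upper 50%. A hexamer was found in 68.8% of regions in 200 bp windows and in 76.3% of the upper 50%. Among genes with a curated RefSeq transcript, an alternative chosen after seeing the data, 18.6% had a promoter region. The cause of these changes was not tested. Low regions rest on few tags in replicate 1, and with 2 replicates of 1 clone no spread between clones can be given.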
